A study of Rattus norvegicus with 16 samples.

Results

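Pdk4, Pdk1, Angptl4, Ucp3 and Ucp2 are 5 genes of the switch between glucose and fatty acids as cardiac fuel. They were chosen by Ensembl identifier (ENSRNOG00000009565, ENSRNOG00000001517, ENSRNOG00000007545, ENSRNOG00000017716 and ENSRNOG00000017854 in that order), and all 5 were found among the 23918 genes of the count files and passed the filter on low counts that left 14175 genes. Heart RNA came from adult male Wistar rats of 240 to 260 g. The 4 control rats received no agent. A single tail vein dose of streptozotocin, a toxin of the insulin-producing beta cells, was given under halothane anesthesia to 6 rats at 55 mg/kg (D55) and to 6 rats at 100 mg/kg (D100). Glucose above 13 mmol/L was checked at 24 h, and the hearts were drained of blood and collected on day 4. Each of the 16 libraries is 1 rat. The labels give no glucose value per rat and name no vehicle injection for the controls.

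The pyruvate dehydrogenase complex lets the carbon of glucose enter the mitochondrial citric acid cycle. Pyruvate dehydrogenase kinases, among them the products of Pdk4 and Pdk1, phosphorylate this complex and switch it off. Pdk4 is known as a kinase of fasting, diabetes and high lipid supply, and it is a target of the fatty acid-sensing PPAR receptors and of FoxO factors, whereas Pdk1 is best known as a target of the hypoxia-inducible factor. Angptl4 is a secreted inhibitor of lipoprotein lipase, the enzyme that frees fatty acids from circulating triglyceride, and is itself a lipid-sensing PPAR target. Ucp3 and Ucp2 encode related carrier proteins of the inner mitochondrial membrane. Ucp3 is largely restricted to skeletal muscle, heart and brown fat, while Ucp2 is found in many cell types, immune cells included. Lack of insulin raises the release of fatty acids from fat tissue, so the heart receives more of them.

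Because 3 of these genes are textbook PPAR targets and 2 are neighbours, the 250 bases before the RefSeq start of 4 of them are shown here, from the GRCr8 table, in which all 5 genes matched by symbol. The sequences run 5′ to 3′ on the strand of the gene. Capitals mark AGGTCA, the element read by nuclear receptors, and ACGTG, a form of the core read by the hypoxia-inducible factor, on either strand.
Pdk4 (chr4:34568330-34568579, minus strand): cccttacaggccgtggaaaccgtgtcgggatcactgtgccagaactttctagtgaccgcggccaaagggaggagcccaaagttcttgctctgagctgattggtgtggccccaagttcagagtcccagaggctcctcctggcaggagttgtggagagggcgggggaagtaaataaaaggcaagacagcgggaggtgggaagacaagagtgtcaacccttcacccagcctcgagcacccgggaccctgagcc
Angptl4 (chr7:15258682-15258931, minus strand): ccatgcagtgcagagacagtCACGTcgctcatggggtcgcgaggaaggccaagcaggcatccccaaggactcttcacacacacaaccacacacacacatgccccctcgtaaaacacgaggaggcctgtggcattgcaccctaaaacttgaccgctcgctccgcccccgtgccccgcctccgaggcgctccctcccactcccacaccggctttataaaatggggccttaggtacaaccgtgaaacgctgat
Ucp3 (chr1:164227660-164227909, plus strand): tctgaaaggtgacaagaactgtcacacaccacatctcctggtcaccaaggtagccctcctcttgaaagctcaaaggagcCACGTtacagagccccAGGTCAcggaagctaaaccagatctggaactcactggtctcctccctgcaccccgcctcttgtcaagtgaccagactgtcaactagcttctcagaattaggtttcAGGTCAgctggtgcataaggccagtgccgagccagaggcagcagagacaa
Ucp2 (chr1:164251123-164251372, plus strand): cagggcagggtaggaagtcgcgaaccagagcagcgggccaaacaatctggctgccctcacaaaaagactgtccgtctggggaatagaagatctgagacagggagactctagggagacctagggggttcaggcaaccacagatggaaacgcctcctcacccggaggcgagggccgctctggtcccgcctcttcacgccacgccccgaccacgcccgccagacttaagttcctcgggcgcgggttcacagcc
Both strands were searched for 6 patterns. Ucp3 held AGGTCA at 155 to 150 and at 50 to 45 bases before its start, both on its own strand. At least 1 match to this element lay in 13.7% and at least 2 in 1.22% of the 27457 promoters searched, and a direct repeat of it with 1 base between lay in 0.0546%. The hypoxia core lay on the opposite strand at 171 to 167 bases before the Ucp3 start and at 230 to 226 bases before the Angptl4 start, and 16.9% of promoters held it. The FoxO core, GTAAACA, was present in 3.25% of promoters. The E-box, CACGTG, whose matches all hold the hypoxia core, was present in 5.79%. The cyclic AMP element, TGACGTCA, was present in 1.7%. These 3 patterns and the direct repeat had 0 matches in the 5 windows, and the windows of Pdk4, Pdk1 and Ucp2 held 0 matches to any of the 6. These are matches of letters alone. Variants of each pattern were not searched, so 0 matches does not mean that a window lacks a site for the factor. On chromosome 1, RefSeq places 0 genes between Ucp3 and Ucp2.

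Library totals were 26.2 to 48.3 M estimated counts in controls, 18.5 to 48.4 M in D55 and 4.69 to 25.6 M in D100. Levels are CPM, counts relative to the library total after scaling by TMM, edgeR's correction for library composition. The libraries differed in composition: the 10 genes with the most counts in the series together held 43.3 to 59.4% of counts in controls, 30.1 to 54.7% in D55 and 53.4 to 69.0% in D100. This percentage is called the top-10 share. D55 B and E had the lowest shares and D100 F the lowest total. The files carry identifiers without gene names, so heart markers and markers of other cells were not checked here, and other genes of the pathway are not named.

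**Figure D1:**
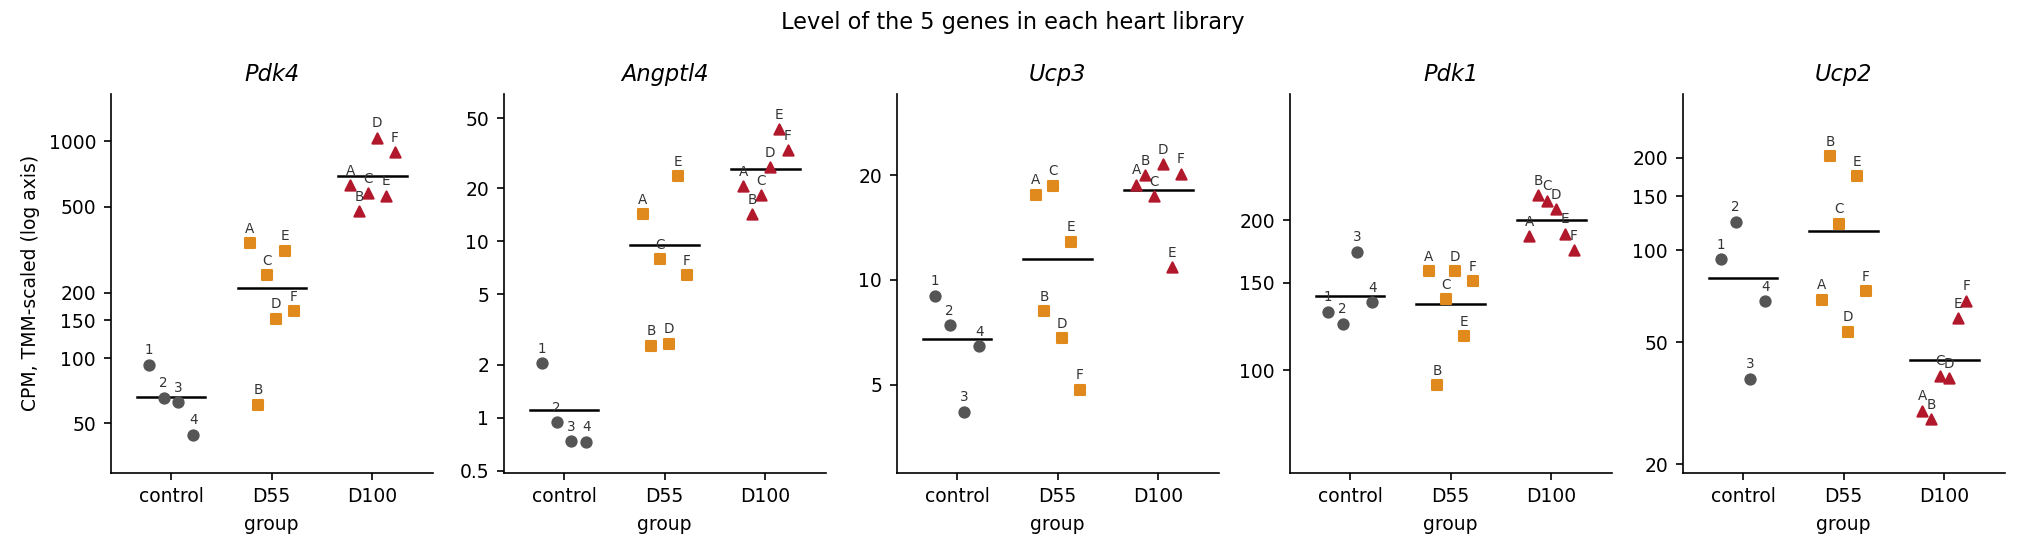
CPM (TMM-scaled, log axis) of each gene in the control (n = 4), D55 (n = 6) and D100 (n = 6) libraries, each point 1 rat with its replicate label and each line the group mean. Pdk4 and Angptl4 lie higher in every D100 library than in any control, with D55 spread between, while Ucp2 is lowest in D100.

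Pdk4 was the kinase with the larger difference. Controls 1 to 4 stood at 93.2, 65.8, 62.6 and 44.4 CPM. D55 libraries A to F stood at 339, 61.0, 241, 152, 313 and 165 CPM. D100 libraries A to F stood at 629, 478, 576, 1040.4, 562 and 892 CPM. All D100 values exceeded all D55 and control values, and 5 of the 6 D55 libraries exceeded every control, the exception being D55 B. The separation of D100 from D55 depended on scaling: without scaling factors D55 E held 469.6 CPM of Pdk4, above D100 A, B and C at 455, 269 and 414. The control mean was 66.5 CPM ± 20.1 (SD, n = 4), the D55 mean 212 ± 106 (SD, n = 6) and the D100 mean 696 ± 219.9 (SD, n = 6). Relative to the control mean, single D55 hearts ranged from 0.917 to 5.09 times and D100 hearts from 7.18 to 15.6 times.

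Pdk4 rose 10.5-fold in D100 over control (95% interval 5.61 to 19.5). On the log2 scale this difference was 3.39 (SE 0.43) with an edgeR adjusted p of 0.00049, the 13th smallest p of the 14175 genes. Against D55 the D100 level was 3.28-fold higher (2.01 to 5.38, edgeR adjusted p = 0.0115). D55 against control gave a 3.19-fold higher fitted level (1.80 to 5.64), with an unadjusted p of 0.000514 that did not pass after adjustment in edgeR (adjusted p = 0.222). DESeq2 and limma-voom called this difference (adjusted p = 0.00293 and 0.00809), as did edgeR when D55 B was left out (0.027) or D55 B together with E (0.0449). D55 B was the D55 library with the lowest Pdk4. In all, 4 of 26 alternative settings called the difference, and 1 of 16 fits that left out 1 library. Without control 4 the edgeR adjusted p was 0.84. Without scaling factors the log2 difference of D100 from D55 was 1.13 (adjusted p = 0.028), against 1.72 with TMM. The D100 call against D55 did not hold in a fit with the top-10 share as covariate, at a log2 fold change of 1.85 (adjusted p = 0.0673).

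Pdk1, the other kinase, differed far less. Controls 1 to 4 held 131, 124, 173 and 137 CPM. D55 libraries A to F held 158, 93.2, 139, 158, 117 and 151 CPM. D100 libraries A to F held 186, 225, 219, 210.4, 188 and 174 CPM. The lowest D100 library lay just above the highest control, and D55 ran from below the controls into their range. The control mean was 141 CPM ± 21.6 (SD, n = 4), the D55 mean 136 ± 26.1 (SD, n = 6) and the D100 mean 200.3 ± 20.6 (SD, n = 6).

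D100 against D55 was a 1.47-fold rise of Pdk1 (1.2 to 1.81, edgeR adjusted p = 0.0166). Against control the D100 level was 1.42-fold higher (1.12 to 1.79), which did not pass in edgeR (adjusted p = 0.0869), while D55 was 0.963 times control (0.764 to 1.21, adjusted p = 0.908). The difference between the doses depended on scaling. Without scaling factors the Pdk1 mean was 151 CPM ± 11.3 (SD, n = 4) for controls, 163 ± 16.4 (SD, n = 6) for D55 and 158 ± 24.0 (SD, n = 6) for D100, and the D100 to D55 log2 fold change turned to -0.046 (edgeR adjusted p = 0.754). Removing the scaling moved the median of all genes in that comparison from -0.03 to -0.65 on the log2 scale. With the top-10 share as covariate the value was 0.15 (adjusted p = 0.553), and without D55 B and E it was 0.40 (adjusted p = 0.11).

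Angptl4, the lipase inhibitor, had rounded counts of 16 to 79 per library in controls, 60 to 1469 in D55 and 159 to 1094 in D100, so counting error weighs most in its controls. Controls 1 to 4 stood at 2.04, 0.941, 0.736 and 0.729 CPM. D55 libraries A to F stood at 14.3, 2.56, 7.93, 2.63, 23.4 and 6.40 CPM. D100 libraries A to F stood at 20.5, 14.3, 18.2, 26.3, 43.1 and 32.8 CPM. Every treated library of either dose exceeded every control, and the dose groups overlapped, since D55 A and E reached into the D100 range. Without scaling factors D55 D, at 2.52 CPM, lay just below control 1, at 2.55, while D100 stayed above all controls. The control mean was 1.11 CPM ± 0.629 (SD, n = 4), the D55 mean 9.54 ± 8.05 (SD, n = 6) and the D100 mean 25.9 ± 10.6 (SD, n = 6).

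Angptl4 rose 23.0-fold in D100 over control (8.67 to 61.0), or 4.52 on the log2 scale (SE 0.67, edgeR adjusted p = 0.00125), and 0.0635% of the tested genes had a higher fold change. In D55 the fitted level was 8.52-fold that of controls (3.43 to 21.2), with an unadjusted p of 0.000124, the 14th smallest, and an edgeR adjusted p of 0.12. DESeq2 and limma-voom called the D55 difference (adjusted p = 9.41e-06 and 0.00831), and so did edgeR when D55 B was left out (0.0302), when B and E were (0.0456), and with the top-10 share as covariate (0.0304). In all, 5 of 26 alternative settings called it, and 1 of 16 fits that left out 1 library. Without control 4 the edgeR adjusted p was 0.639. The highest D55 library, E, held 9.14 times the lowest, B. D100 was 2.70-fold above D55 (1.33 to 5.49, edgeR adjusted p = 0.0346). That call was lost in 8 of 16 fits that left out 1 library, namely D55 B, C or F or D100 A, B, C, D or E, where the adjusted p was 0.0514 to 0.0733. Without scaling factors the log2 fold change between the doses was 0.84 (adjusted p = 0.243).

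**Figure D2:**
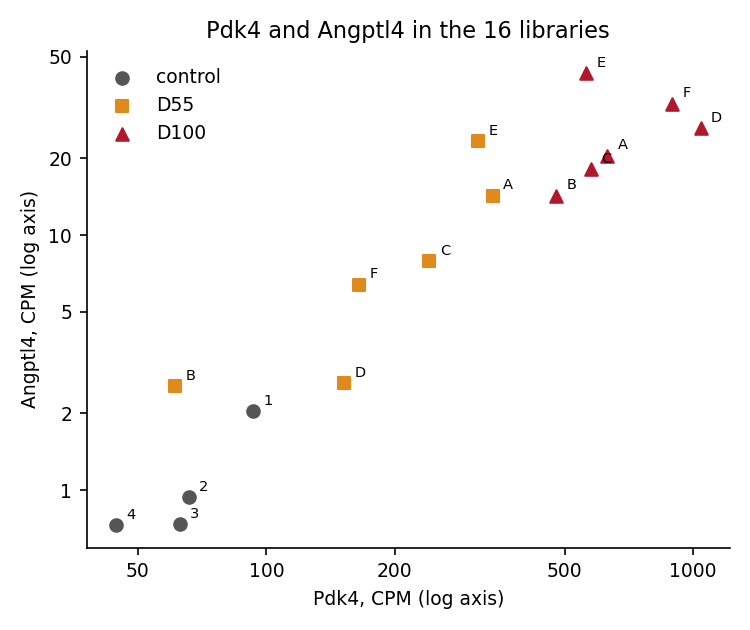
Angptl4 against Pdk4 in CPM (TMM-scaled, both axes log) for the 16 libraries, with replicate labels. Controls lie at the lower left, D100 at the upper right, and D55 spreads from B, at 61.0 CPM of Pdk4, to A, at 339.

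The D55 hearts differed widely among themselves. Libraries A, C and E were the top 3 of their group for Pdk4, Angptl4 and Ucp3 alike, with and without scaling factors, and B, D and F were the lower 3. Pdk1 had the same top 3 without scaling factors, but A, D and F with TMM. The fraction of all genes with the top 3 of A, C and E was not computed. For Ucp2 the top 3 were B, C and E on both scales. The lowest of the upper 3 and the highest of the lower 3 were 241 and 165 CPM for Pdk4, 7.93 and 6.40 for Angptl4, and 12.9 and 8.14 for Ucp3. Within D55, Pdk4 and Angptl4 had a Pearson r of 0.86 over 6 rats (exact permutation p = 0.0153, adjusted 0.153 over 20 relations) and a Spearman rho of 0.943 (exact permutation p = 0.0167). Without the 2 libraries farthest from the Pdk4 median r was 0.924. Within D100, r was 0.419 (exact permutation p = 0.397) and rho 0.371 (exact permutation p = 0.497), with an r of 0.348 without the 2 farthest libraries. Neither relation passed the adjustment.

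Ucp3, the muscle-type carrier, showed a smaller difference in the same direction. Controls 1 to 4 held 9.01, 7.41, 4.18 and 6.46 CPM. D55 libraries A to F held 17.6, 8.14, 18.7, 6.79, 12.9 and 4.84 CPM. D100 libraries A to F held 18.8, 20, 17.4, 21.5, 10.9 and 20.2 CPM. D100 lay above all controls, with E the lowest, while D55 split into 3 libraries above the control range and 3 within it. Without scaling factors D100 E, at 10.9 CPM of Ucp3, fell below control 1, at 11.2. The control mean was 6.77 CPM ± 2.02 (SD, n = 4), the D55 mean 11.5 ± 5.80 (SD, n = 6) and the D100 mean 18.1 ± 3.79 (SD, n = 6).

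Ucp3 rose 2.67-fold in D100 over control (1.59 to 4.49, log2 fold change 1.42, SE 0.36, edgeR adjusted p = 0.0336). The call was lost in 8 of 16 fits that left out 1 library, any of the 4 controls or D100 A, B, C or D, at adjusted p values up to 0.109. It was lost as well without scaling factors, at a log2 fold change of 0.89 (adjusted p = 0.169). D55 was 1.69-fold above control (1.02 to 2.81, edgeR adjusted p = 0.554), a log2 difference of 0.76 that was 0.061 in limma-voom (adjusted p = 0.926). D100 was 1.58-fold above D55 (1.01 to 2.46, edgeR adjusted p = 0.0914), and this difference turned to -0.024 on the log2 scale without scaling factors.

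Ucp2, the widely expressed carrier, had its lowest mean in D100. Controls 1 to 4 stood at 93.6, 124, 38.0 and 68.2 CPM. D55 libraries A to F stood at 68.9, 203, 122, 54.1, 174 and 73.3 CPM. D100 libraries A to F stood at 29.9, 28.1, 38.9, 38.2, 60.0 and 68.3 CPM. The groups overlapped, with control 3 among the D100 values and D55 B and E the highest of all. The control mean was 81.0 CPM ± 36.7 (SD, n = 4), the D55 mean 116 ± 61.2 (SD, n = 6) and the D100 mean 43.9 ± 16.5 (SD, n = 6).

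Ucp2 fell between the doses, to 0.378 times the D55 level in D100 (0.223 to 0.639), or -1.40 on the log2 scale (SE 0.36, edgeR adjusted p = 0.0167). Against control D100 stood at 0.541 times (0.306 to 0.956, edgeR adjusted p = 0.192) and D55 at 1.43 times (0.799 to 2.56, adjusted p = 0.633). Without D55 B and E the dose difference was -0.87 (adjusted p = 0.161) and the D55 to control difference -0.023 on the log2 scale. In whole heart, fewer cells of a type and less RNA per cell cannot be told apart.

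The top-10 share moved with Ucp2 across all groups. Within D55 the correlation of log2 CPM with this share was -0.98 (exact permutation p = 0.00417, adjusted 0.0174 over 10 relations), with a rho of -0.943 (exact permutation p = 0.0167). Without the 2 libraries farthest from the median share it was -0.965. Within D100 it was -0.951 (exact permutation p = 0.00556, adjusted 0.0174), with a rho of -0.829 (exact permutation p = 0.0583), and -0.728 without the 2 farthest libraries. With the share as a covariate, the Ucp2 log2 differences were 0.0032 for D55 against control, 0.0062 for D100 against control and 0.003 for D100 against D55 (edgeR adjusted p = 0.996, 0.985 and 0.995). The mean share itself was 49.7% for controls, 43.6% for D55 and 60.8% for D100, and its part in the Ucp2 difference cannot be told apart from that of dose. How many of all genes follow the share as closely was not computed. Other genes with a mean of at least 5 CPM had much the same pattern or its opposite over the 16 libraries. Their r values reached 0.988 and -0.982 with Ucp2, and 0.975 and -0.978 with Pdk1.

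With TMM scaling Pdk1 moved with the share in the opposite direction. In D55 its r was 0.923 (exact permutation p = 0.00694, adjusted 0.0174), its rho 0.943 (exact permutation p = 0.0167) and its r without the 2 farthest libraries 0.887. In D100 these were 0.813 (exact permutation p = 0.0528, adjusted 0.106), 0.829 (exact permutation p = 0.0583) and 0.502. Without scaling factors the Pdk1 relation was 0.01 in D55 and -0.92 in D100, so it depended on the scaling. The TMM factors, by which CPM is divided, themselves fell as the share rose. In D55 they went from 1.5 in B (share 30.1%) to 0.957 in D (54.7%). In D100 they went from 1.03 in F (53.4%) to 0.564 in B (69.0%). The TMM-scaled relation and its p are thus not independent of the scaling. Angptl4 was related to the share in D100 alone past the threshold, with an r of -0.947 (exact permutation p = 0.00556, adjusted 0.0174), a rho of -0.943 (exact permutation p = 0.0167) and an r of -0.938 without the 2 farthest libraries. In D55 its r was -0.186 (exact permutation p = 0.708), and whether the 2 doses differ in this was not tested. Pdk4 and Ucp3 had r values of 0.253 and -0.266 in D55 and -0.475 and 0.437 in D100, with exact permutation p values of 0.671, 0.56, 0.318 and 0.435.

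**Figure D3:**
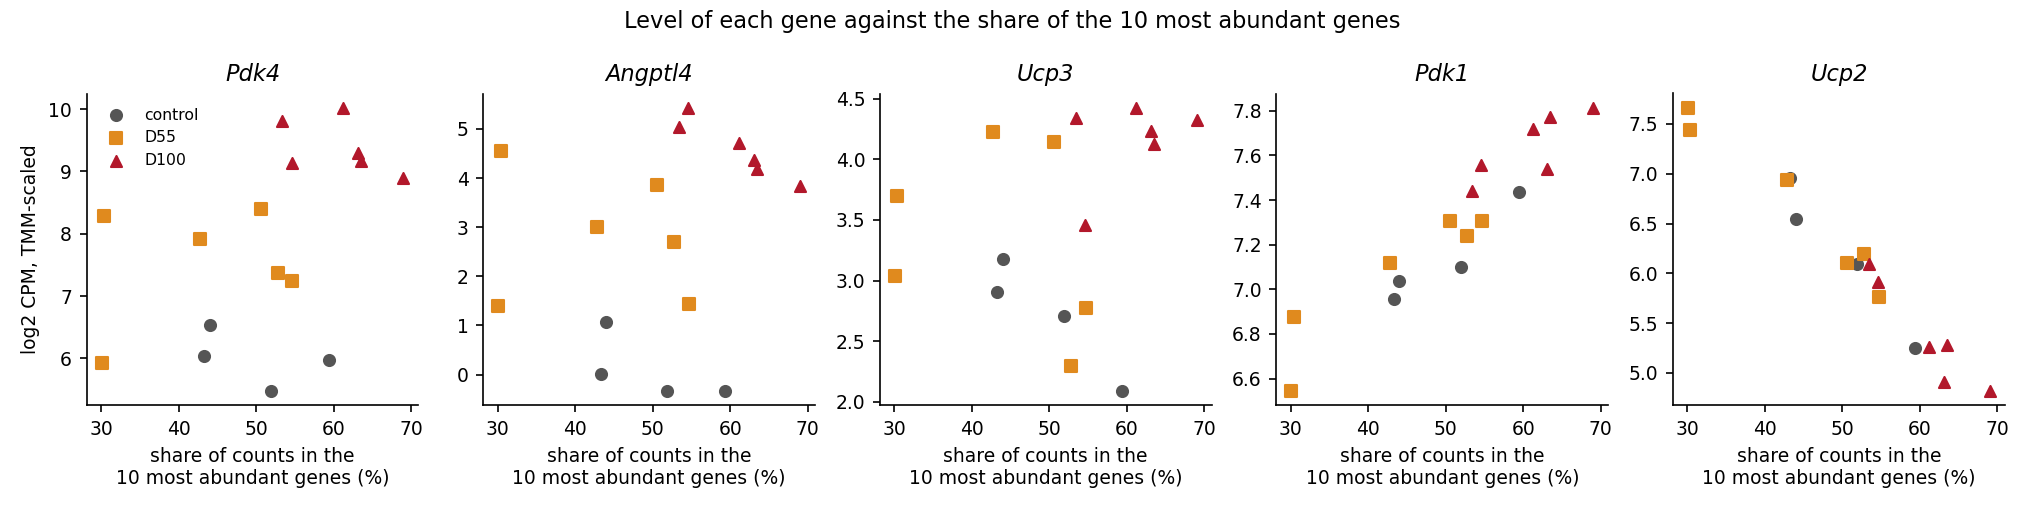
Log2 CPM (TMM-scaled) of each gene against the top-10 share in percent, each point 1 library. Ucp2 runs downward and, on this scale, Pdk1 upward with the share, though the Pdk1 relation in D100 did not pass the threshold and controls were not tested. Pdk4 and Angptl4 lie above all controls in every D100 library. Of the D100 libraries, only E and F (54.6 and 53.4%) have a share within the control range of 43.3 to 59.4%.

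Counted over the 5 genes, D100 against control gave 3 higher (Pdk4, Angptl4 and Ucp3) and 0 lower in edgeR, where 4.38% of all tested genes were called (1.92% higher and 2.46% lower). The median log2 fold change was 1.42 over the 5 genes and -0.03 over all genes. All 5 had an unadjusted p under 0.05, as did 22.8% of all genes. DESeq2 called 4 higher and 0 lower, with 9.63% of all genes called. Limma-voom called 4 higher and 1 lower, but it called 67.7% of all genes. Without D55 B and E edgeR called 4 higher, Pdk1 added, with 10.8% of all genes called. D100 and control did not overlap for 4 of the 5, Pdk1 among them, against 7.57% of all tested genes. Without scaling factors this held for 2, Pdk4 and Angptl4, against 8.14%.

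For D55 against control edgeR called 0 of the 5 and 0.0635% of all genes. An unadjusted p under 0.05 was reached by 3 of the 5 and by 8.97% of all genes. Pdk4 and Angptl4 were the 2 called by DESeq2, which called 0.673% of all genes, and by limma-voom, which called 3.68%. The same 2 were called by edgeR when D55 B and E were left out, with 0.101% of all genes. Only Angptl4 of the 5 had no overlap between D55 and control, against 2.55% of all genes. Without scaling factors 0 of the 5 were free of overlap, against 1.52%. The median log2 fold change was 0.76 over the 5 genes and 0.03 over all.

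Between the doses, D100 against D55, edgeR called 3 of the 5 higher (Pdk4, Pdk1 and Angptl4) and 1 lower (Ucp2), in a comparison where 35.6% of all genes were called, 13.7% higher and 21.8% lower. When D55 B and E were left out, the Pdk4 call alone of these held, and the share of all genes called was 0.888%. With the top-10 share as covariate 0 held and 0.289% of all genes were called. An unadjusted p under 0.05 was then reached by 2 of the 5 and by 12.5% of all genes. In both settings calls were thus lost over the whole table. Pdk4 and Pdk1 had no overlap between the doses, against 4.2% of all genes. Without scaling factors 0 of the 5 were free of overlap, against 7.2%. D55 and D100 share their 4 controls, so their changes from control are not independent of each other.

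**Figure D4:**
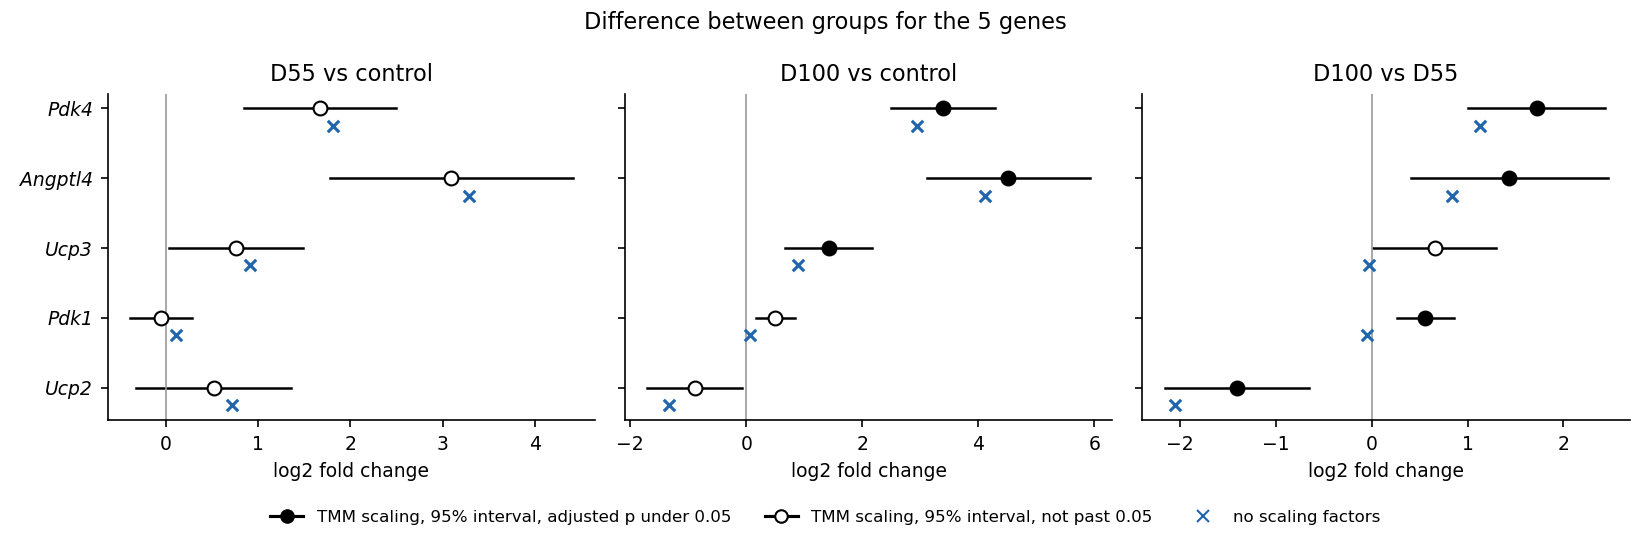
Log2 fold change of the 5 genes in each comparison from edgeR, with 95% intervals (filled where the adjusted p over all genes is under 0.05), and the value without scaling factors as a cross. Pdk4 and Angptl4 lie to the right of 0 in all 3 panels, and the Pdk1 and Ucp3 crosses fall near 0 for D100 against D55.

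Ratios between 2 genes within a library do not depend on scaling between libraries, and gene length cancels when groups are compared. They can still move with the top-10 share, and no ratio was tested with that share as covariate. The ratio of Pdk4 to Pdk1, the balance of the kinase transcripts, had a mean log2 of -1.13 ± 0.52 (SD, n = 4) for controls, 0.46 ± 0.77 (SD, n = 6) for D55 and 1.75 ± 0.5 (SD, n = 6) for D100. Control libraries ran from -1.63 to -0.50, D55 from -0.61 to 1.41 and D100 from 1.09 to 2.36. Neighbouring groups overlapped, D55 B falling among the controls and D55 A and E among D100. The ratio was 7.33-fold higher in D100 than in control (exact two-sided permutation p = 0.00476, the smallest this design allows, adjusted 0.0114 over 12 tests). It was 3.01-fold higher in D55 than in control (exact permutation p = 0.019, adjusted 0.0254) and 2.44-fold higher in D100 than in D55 (exact permutation p = 0.0108, adjusted 0.0216).

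The carriers, whose genes are neighbours, also parted. The log2 ratio of Ucp3 to Ucp2 was -3.50 ± 0.39 (SD, n = 4) for controls, -3.33 ± 0.96 (SD, n = 6) for D55 and -1.23 ± 0.75 (SD, n = 6) for D100. D100 libraries ran from -2.45 to -0.49 and lay above all controls, which ran from -4.06 to -3.18, while D55 A, at -1.97, reached into the D100 range. The ratio was 4.85-fold higher in D100 than in control (exact permutation p = 0.00476, adjusted 0.0114) and 4.30-fold higher than in D55 (exact permutation p = 0.00433, adjusted 0.0114). D55 against control gave 1.13-fold (exact permutation p = 0.752). Ucp2 itself moved with the top-10 share within both dose groups, and the part of the share in this ratio was not tested.

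Angptl4 differed from control by more than Pdk4 did at both doses. The log2 ratio of Angptl4 to Pdk4 was -5.97 ± 0.37 (SD, n = 4) for controls, -4.72 ± 0.68 (SD, n = 6) for D55 and -4.79 ± 0.56 (SD, n = 6) for D100. The differences from control were 1.25 in D55 (exact permutation p = 0.019, adjusted 0.0254) and 1.18 in D100 (exact permutation p = 0.00476, adjusted 0.0114), while the doses differed by -0.07 (exact permutation p = 0.864). The D55 difference did not pass without D55 B and E (0.97, exact permutation adjusted p = 0.0686). Ucp3 relative to Pdk4 was lower in D100 than in control by a log2 difference of -1.94 (exact permutation p = 0.00476, adjusted 0.0114) and lower than in D55 by -1.06 (exact permutation p = 0.0152, adjusted 0.0254). D55 against control gave -0.87 (exact permutation p = 0.081, adjusted 0.0971).

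**Figure D5:**
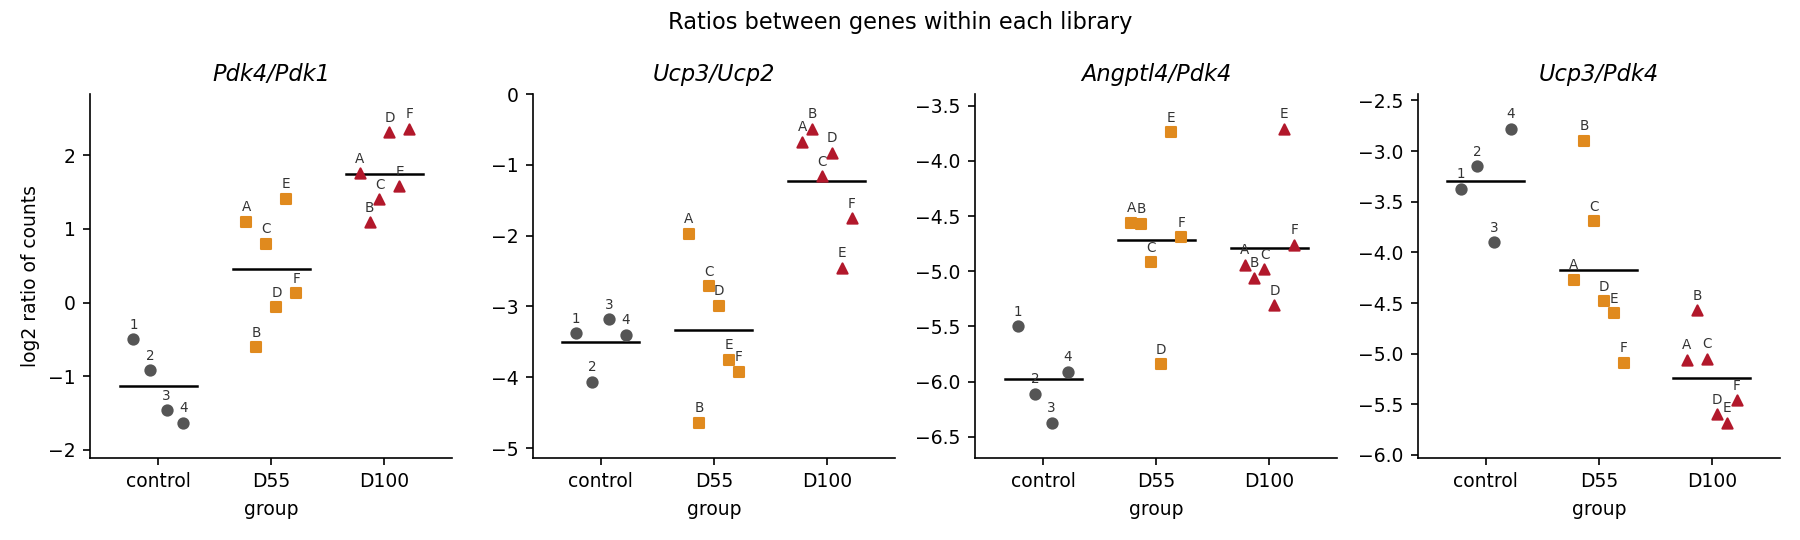
Log2 ratio of counts between 2 genes in each library, with replicate labels and the group mean as a line. Pdk4/Pdk1 rises from -1.13 in controls to 1.75 in D100, and Ucp3/Ucp2 separates D100 from control but not D55 from control.

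Among 8653 other genes with a mean of at least 5 CPM, the log2 CPM pattern most like that of Pdk4 over the 16 libraries belonged to ENSRNOG00000021201.7 (Pearson r = 0.966) and to Angptl4 (r = 0.948). ENSRNOG00000021201.7 had a control mean of 326 CPM ± 46.9 (SD, n = 4), a D55 mean of 653 ± 242 (SD, n = 6) and a D100 mean of 1252 ± 188 (SD, n = 6) (edgeR adjusted p = 0.000854 for D100 against control). The most opposite patterns were those of ENSRNOG00000049876.1 (r = -0.937) and ENSRNOG00000007541.6 (r = -0.932). The latter had a control mean of 13.8 CPM ± 2.42 (SD, n = 4), a D55 mean of 9.45 ± 2.88 (SD, n = 6) and a D100 mean of 3.93 ± 0.65 (SD, n = 6) (edgeR adjusted p = 0.00038 for D100 against control). The same means of the former were 182 ± 7.80, 163 ± 15.9 and 139.8 ± 6.73 CPM (edgeR adjusted p = 0.0506). These r values describe likeness over libraries that share groups and carry no test.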

How the data were processed

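The authors deposited estimated counts for each gene and library. The submitters' processing notes name kallisto 0.43.1 and the build Rnor_6.0. Per the labels' protocols, a stranded kit for polyadenylated RNA and 400 ng of input were used. For the annotation release, strand setting and read filters, nothing is given in the sources used here. Where an estimate lay under 10000, all estimates of the 5 genes were within 0.01 of a whole number. Other genes were not checked for this, so it cannot tell whether reads were divided between similar genes.

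The identifiers were paired with symbols by the rule that chose the genes. The reference table holds 0 rows with an Ensembl identifier, so the pathway and cell type lists fixed by symbol were not used. The members and lists were chosen with earlier results of these data known. Also named are the 2 genes with the highest correlation with Pdk4, of which 1 is Angptl4, and the 2 with the most negative.

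Estimated counts were rounded and analysed in R 4.3.3 with edgeR 4.0.16: filterByExpr by group, TMM, and a quasi-likelihood fit over all 16 libraries with 1 coefficient per group. P-values were adjusted by Benjamini-Hochberg over all 14175 genes with a threshold of 0.05. Intervals of folds are 95% intervals from the same fit. Ratios used counts plus 0.5 and log2 CPM a prior count of 2. Ratios and correlations were tested by exact permutation, two-sided. The fit was tested on simulated data with known changes put into a common mean profile. The differences in composition between the real libraries were not simulated. At the depth of these libraries 3 counts equal 0.0413 to 0.619 CPM, which covers counting error only. Alternatives were DESeq2 1.42.0, limma-voom (limma 3.58.1) with quality weights, other scalings and filters, the compared groups alone, a covariate, the replicate letter, and left-out libraries.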

Additional observations from a re-analysis of the deposited data

Results flagged for a closer look

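Ucp3 in D100 E stood at 10.9 CPM, far below the other D100 libraries at 17.4 to 21.5 CPM. The gap to the nearest library, on the log2 scale, was 0.687 of the group's range, above Dixon's critical value of 0.625 for 6 samples. Without scaling factors D100 E was again the lowest but lay next to D100 B, at 10.9 and 11.3 CPM, so the gap depended on scaling. Chance flags about 1 in 20 groups, and 15 groups were looked at here. In the same heart Angptl4 was the highest of all libraries, at 43.1 CPM, and Pdk4 stood at 562 CPM, inside the D100 range.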

How the results depend on the processing

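Pdk4 and Angptl4 in D100 against control stayed called under all 26 alternatives, with log2 fold changes of 2.94 to 3.59 and of 3.88 to 5.15. In D55 against control Pdk4 was called under 4 of the 26 and Angptl4 under 5. Values below are log2 differences. In DESeq2, D55 against control was called for Pdk4 (1.69) and Angptl4 (3.12), and D100 against control for Pdk1 (0.53). In limma-voom the same D55 calls were made (1.40 and 2.36), D100 against control was called for Pdk1 (0.65) and Ucp2 (-1.36) and D100 against D55 for Ucp3 (1.16), and the D55 differences of Pdk1 and Ucp2 turned to 0.19 and -0.34, while that of Ucp3 shrank to 0.061. Without scaling factors Ucp3 in D100 against control (0.89) and Angptl4 between the doses (0.84) lost their calls, and Pdk1 in D55 (0.11), Pdk1 between the doses (-0.046) and Ucp3 between the doses (-0.024) changed sign. The median of all genes was then 0.20 in D55 against control, -0.48 in D100 against control and -0.65 between the doses. A stricter filter (5 CPM in 4 libraries) called Pdk1 in D100 against control (0.48), and with the groups compared alone Angptl4 between the doses was lost (1.43). With the top-10 share (percentage of counts in the 10 most abundant genes) as covariate, Angptl4 in D55 was called (2.78). Pdk4 (1.85), Pdk1 (0.15) and Angptl4 (2.37) between the doses were lost, and Pdk1 in D55 (0.084), Ucp2 in D100 against control (0.0062) and Ucp2 between the doses (0.003) changed sign. Without D55 B and E, Pdk4 (1.75) and Angptl4 (2.80) in D55 and Pdk1 in D100 against control (0.50) were called. Pdk1 (0.40), Angptl4 (1.72) and Ucp2 (-0.87) between the doses were lost, and Pdk1 (0.099) and Ucp2 (-0.023) in D55 changed sign. In that setting the ratio of Angptl4 to Pdk4 was 0.97 in D55 against control and 0.21 between the doses, and that of Ucp3 to Pdk4 between the doses -0.85 (adjusted p = 0.05). The cause of these shifts was not tested.

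The replicate letters shared by D55 and D100 showed no regular pairing of the rats. The correlations of same-lettered libraries ran from -0.501 to 0.628, and 1 of 6 libraries correlated best with its own letter. Whether a letter marks any shared handling was not tested. With the letter as a replicate block, Pdk4 (1.86), Pdk1 (0.57), Angptl4 (1.76) and Ucp2 (-1.30) between the doses had adjusted p values of 0.053, 0.0564, 0.053 and 0.053. The block fit called 0 of 13295 genes, with 5916 at an unadjusted p under 0.05, against 3018 called by edgeR in the same groups without it.

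Leaving out 1 library at a time gave, for D55 against control, 1.49 to 1.88 for Pdk4, 2.61 to 3.56 for Angptl4, 0.58 to 0.93 for Ucp3, -0.11 to 0.055 for Pdk1 and 0.28 to 0.80 for Ucp2. For D100 against control it gave 3.24 to 3.59, 4.31 to 5, 1.25 to 1.58, 0.44 to 0.61 and -1.12 to -0.61 in that order, and between the doses 1.53 to 1.90, 1.22 to 1.93, 0.50 to 0.84, 0.47 to 0.60 and -1.58 to -1.16. Without D55 A, Ucp3 between the doses was called (adjusted p = 0.0448). The ratios ran, for D55 against control, from 1.40 to 1.80 (Pdk4/Pdk1), -0.098 to 0.44 (Ucp3/Ucp2), 1.05 to 1.47 (Angptl4/Pdk4) and -1.13 to -0.69 (Ucp3/Pdk4). Angptl4/Pdk4 between the doses ran from -0.29 to 0.13. Without control 3 the D55 differences of Pdk4/Pdk1 and Angptl4/Pdk4 had exact permutation adjusted p values of 0.0536 and 0.0794.

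The number of genes called over the whole table moved from 9 to between 0 and 522 in D55 against control, from 621 to between 180 and 9594 in D100 against control, and from 5041 to between 0 and 7068 between the doses. No scaling gave 90 genes higher against 1082 lower in D100 against control, where TMM gave 272 and 349, and 141 against 6875 between the doses, where TMM gave 1944 and 3097. Correlations that changed sign without scaling factors were, in D55, Pdk4 with Ucp2 (0.044), Pdk1 with Ucp2 (0.023) and the top-10 share with Pdk4 (-0.051). In D100 they were Pdk4 with Pdk1 (0.76), Pdk1 with Angptl4 (0.92), Pdk1 with Ucp2 (0.95), Angptl4 with Ucp3 (0.35), Ucp3 with Ucp2 (0.45), and the share with Pdk1 (-0.92) and with Ucp3 (-0.48).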
